A study of Macaca fascicularis with 8 samples.

Results

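Of the 245443 regions obtained by merging the peaks of 7 monkey organs, 10307 regions (4.20%) had a peak in the liver of a male animal, in none of the 6 other organs, and again in the liver of a female animal. These liver-only regions with a peak in both livers are called members hereafter. They were chosen by the deposited peak calls alone. Peaks of colon, heart, kidney, male liver, lung, spleen and uterus were merged where they shared at least 1 bp, regions with a male liver peak only were kept, and those that overlapped a female liver peak by at least 1 bp became members. The remaining 20549 liver-only regions had no female liver peak and served as the contrast. Since the peak calls chose the members, their presence in both livers is a description and was not tested.

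The data were single-cell assays of open chromatin (scATAC-seq) of normal, untreated tissue from adult cynomolgus monkeys (Macaca fascicularis). Colon, heart, lung and uterus came from the female, kidney and spleen from the male, and liver from both, with 1 library each. Sex, animal and library preparation therefore cannot be told apart between the livers, and no p-value was taken from cells or regions. Intervals given with values are 95% intervals of counting error only.

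In scATAC-seq a transposase inserts adapters where DNA is not wrapped in nucleosomes, so that the cut ends mark promoters, enhancers and other regulatory elements in use in a cell. Distal elements vary more between organs than promoters do. In the liver, hepatocytes carry out plasma protein synthesis, bile acid synthesis, detoxification and much of the metabolism of sugars and lipids. Sinusoidal endothelial cells, resident macrophages, stellate cells, bile duct cells and blood lymphocytes share the tissue with them, and each type has its own set of open elements.

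The livers differed widely in depth. The male liver library held 11935 barcodes, all with at least 1000 counts in peaks, a median of 6818 counts per barcode and 92100566 counts. The female liver library held 2110 barcodes, of which 728 (34.5%) reached 1000 counts, with a median of 2040.5 counts among those and 1978404 counts. The female liver nevertheless had the longer peak list, 165942 peaks against 110993, and 21.7% of its peaks had no count in any deposited barcode against 0.459% in the male liver. Barcode sequences overlapped little, with 30 found in both livers. The genes nearest to the members are not given, because the build of the gene table used here did not match the peaks, and the liver identity of the cells could not be checked by marker genes for the same reason.

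Support by the second liver was much rarer among liver-only regions than among other male liver peaks. Of 30856 liver-only regions, 33.4% (interval 32.9 to 33.9) overlapped a female liver peak, while the share was 66.5% over all male liver peaks and 79.2% over those that overlapped a peak of another organ. The share rose with the number of other organs that had a peak in the region. It was 52.6% with 1 other organ, 69.3% with 2, 83.0% with 3, 88.1% with 4, 93.7% with 5 and 98.6% with all 6. Regions open in all organs were also the widest, with a median male liver peak of 1234 bp against 425 bp for liver-only regions.

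The same overlap was then measured for regions with a peak in 1 other organ only. At 1 bp of overlap, spleen-only regions met female liver peaks about as often as liver-only regions did, 33.0% of 12217 (interval 32.2 to 33.8), although the spleen came from the male animal. The share was 13.04% for heart, 12.9% for colon, 10.3% for lung, 6.04% for kidney and 5.58% for uterus. How near liver and spleen lay depended on the overlap required. Where the female liver peak had to cover at least 50% of the region the shares were 20.1% for liver and 26.7% for spleen, and with female liver peaks that held a count in a barcode of at least 1000 counts they were 26.7% and 28.7%. Peaks with a count in any deposited barcode gave 29.1% and 30.02%. The overlap chose the members, so no test of it is given.

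Liver-only and spleen-only regions differed in how support followed accessibility. Among liver-only regions with a count in under 0.5% of male liver barcodes, 15.6% had a female liver peak. The share was 21.4% between 0.5 and 1% of barcodes, 37.8% between 1 and 2%, 62.9% between 2 and 4%, and 88.6% (interval 87.1 to 89.9) at 4% or more, where 1899 of 2144 regions were members. Spleen-only regions stayed at 32.6%, 35.6% and 33.1% over the bins up to 2% of spleen barcodes, and only 27 of them lay above that. Between the lowest and the highest bin heart went from 7.87 to 20.0%, colon from 11.1 to 19.0% and kidney from 5.45 to 10.8%. The bins of lung ranged from 8.98 to 11.004% and those of uterus from 5.21 to 6.25%. The bins refer to each organ's own barcodes, whose median depth ranged from 2276 counts in spleen to 7446 in colon.

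**Figure D1:**
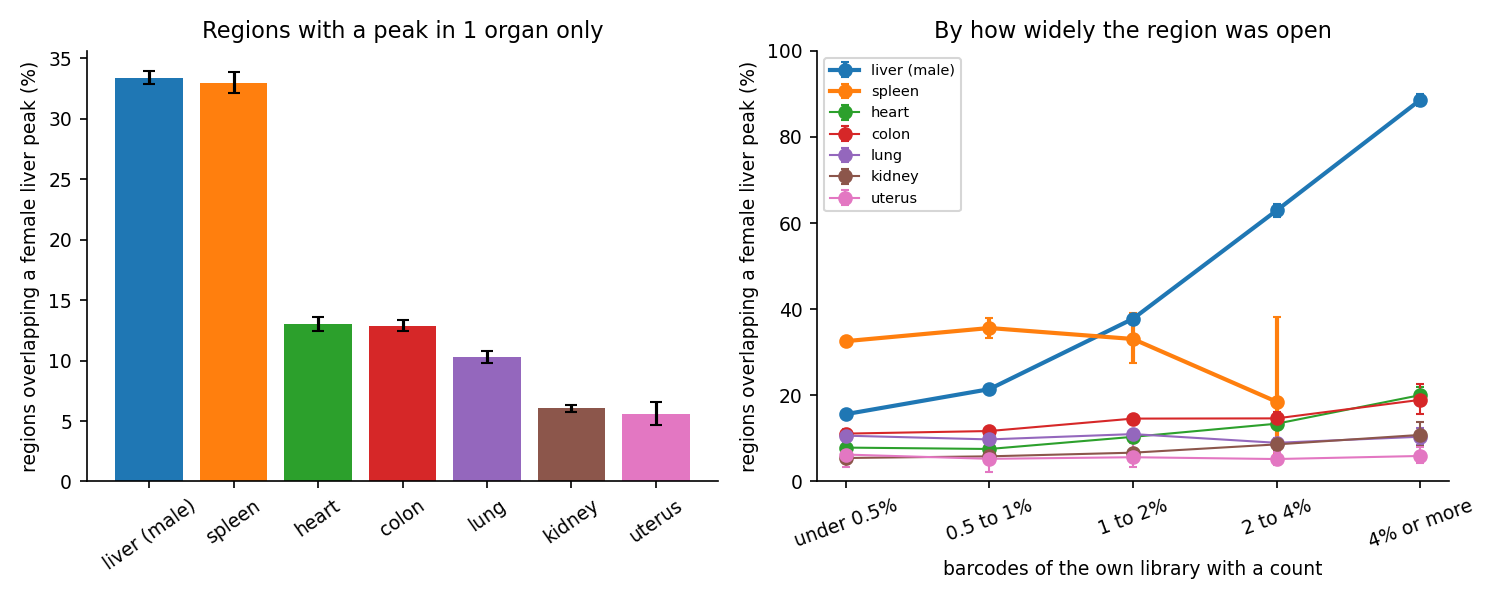
The left panel plots, for regions with a peak in 1 organ only, the percent that overlapped a female liver peak, with exact 95% binomial intervals as error bars. The right panel splits the same shares by the percent of the organ's own barcodes with a count in the region. Male liver (33.4%) and spleen (33.0%) stood level on the left, and on the right the male liver line climbed from 15.6 to 88.6%, against 7.87 to 20.0% for heart, 11.1 to 19.0% for colon and 5.45 to 10.8% for kidney.

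Members were more accessible in the male liver than liver-only regions without a female liver peak. The median member had 380 counts in the male liver, or 4.13 CPM (counts in the region scaled to a total of 1000000 counts in peaks, with quartiles 1.85 and 8.53), and a count in 1.62% of barcodes. The median region without support had 141 counts, 1.53 CPM (quartiles 0.955 and 2.70), and a count in 0.654% of barcodes. The ratio of the medians was 2.70, and 12.7% of the unsupported regions lay above the median of the members. The distributions overlapped. Members reached from 0 counts, in 27 regions, to 38962.

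Part of this difference followed peak width. The median member was 567 bp wide and the median unsupported region 377 bp, and per kb of peak the ratio of the medians fell from 2.70 to 1.496. Peaks under 400 bp had near-equal medians with and without support. These were 0.282 and 0.271 CPM under 200 bp, and 1.23 in both classes from 200 to under 400 bp. The ratio was 1.52 from 400 to under 800 bp, 2.14 from 800 to under 1600 bp and 2.34 at 1600 bp or more. Wide peaks were also the most often supported, from 14.2% under 200 bp to 71.6% at 1600 bp or more. A wider peak meets the rule of 1 bp of overlap more easily, and the part of this in the shares was not tested.

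Ordered by male liver counts, the liver-only regions rose from 13.8% supported in the lowest decile (0 to 39 counts) to 26.3% in the 6th, 43.6% in the 8th, 59.1% in the 9th and 83.6% in the highest (786 to 38962 counts). The counts were concentrated in few members. The 1030 most accessible members held 38.3% of all male liver counts in members, and 234 members had a count in at least 10% of male liver barcodes.

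**Figure D2:**
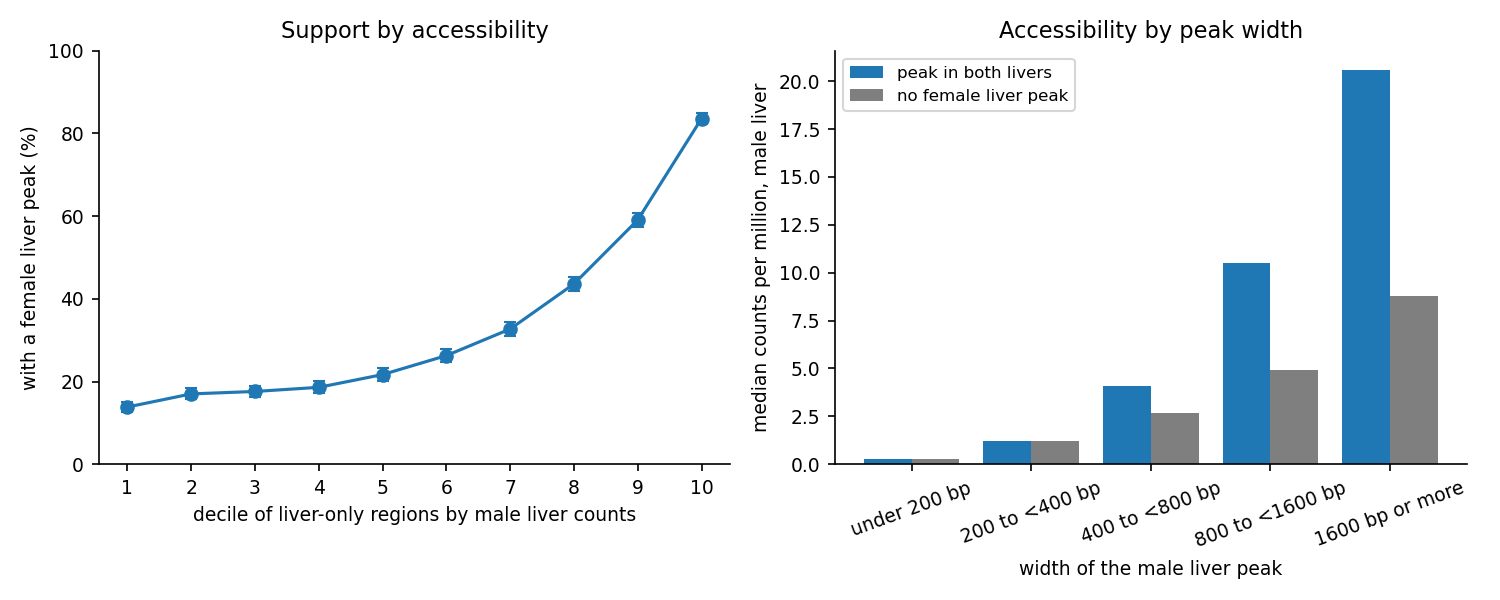
The left panel plots the percent of liver-only regions with a female liver peak for each decile of male liver counts, with exact 95% binomial intervals, and climbs from 13.8 to 83.6%. The right panel plots the median CPM in the male liver by peak width for regions with and without a female liver peak, which were level under 400 bp and stood 2.34-fold apart at 1600 bp or more.

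How firmly a member was supported varied. The female liver peaks covered a median of 59.7% of a member's male liver peak, 6206 members (60.2%) were covered over at least 50% of their length, and 1158 were covered whole. At the edge of the rule, 27 members shared 1 bp with the female liver peak. One of them, chr10:31666125-31667313, was open in 3.42% of male liver barcodes, while the female liver peak was 1 bp wide and held no count. Just outside, chr17:889121-889366 touched a female liver peak without sharing a base, and 301 unsupported regions (1.46%) had a female liver peak within 100 bp. On the side of the other organs, chr1:212137701-212138163 adjoined a colon peak with no base between them. Peaks of other organs lay equally near members and unsupported regions, at medians of 3294 and 3327 bp.

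The counts behind the female liver peaks were few. The median member had 3 counts in female liver barcodes with at least 1000 counts, and a count in 0.275% of those barcodes. No such barcode had a count in 2055 members (19.9%), and 1334 (12.9%) had none in any deposited barcode, so that their support rested on the deposited peak call alone. Median female liver counts rose with male liver counts. They were 2 in each of the 5 lowest deciles of members by male counts, 5 in the 9th and 8 in the highest. The share of members without a count was 24.1% in the lowest decile, 31.7% in the 2nd and 5.24% in the highest. Mean female counts were likewise not least in the lowest decile, with 5.01 there, 3.19 in the 2nd and 9.99 in the highest. Across the 10307 members the Spearman correlation of CPM between the livers was 0.32, a description over regions that share libraries and peak widths.

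The members most widely open in the male liver were wide peaks, which a ranking by counts over the whole peak favours. Across the 10307 members the Spearman correlation of width and CPM in the male liver was 0.907. First was chr9:130847932-130873287, the widest member at 25356 bp, with a count in 6780 of 11935 male liver barcodes (56.8%, interval 55.9 to 57.7). In the female liver 35 of 728 barcodes (4.81%) had a count in the peaks inside it, which covered 7014 bp. Next came chr18:22612706-22623301, 10596 bp wide, open in 48.4% of male and 6.59% of female liver barcodes. The shares were 37.2% and 0.824% for chr14:105045646-105055210, 36.7% and 2.34% for chr5:151309810-151319260, 34.6% and 1.92% for chr14:47368412-47374491, and 29.7% and 1.79% for chr15:39241948-39258506. Thinned to 1000 counts per barcode, a setting chosen for these regions after seeing the data, the shares were 26.7% in the male and 3.43% in the female liver for the first, 18.1 and 4.81% for the next, and 9.61 to 12.6% against 0.412 to 1.51% for the other 4. The thinned shares of the median member were 0.344% and 0.137%. All 6 were wider in the male than in the female peak list, where 14.4 to 37.3% of their length lay in a peak.

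The members most widely open in the female liver were of another kind. All 6 met a wide female liver peak that also overlapped a peak of another organ, and 5 of them were male liver peaks of 47 to 674 bp that lay whole inside it. The highest, chr4:125123293-125124928, was itself 1636 bp wide, had 79.3% of its length in the female liver peak and was open in 1.89% of male liver barcodes. Its female liver peak of 7693 bp had a count in 86 of 728 barcodes (11.8%, interval 9.56 to 14.4). The male peak chr9:66970778-66971149 was 372 bp wide with 0.654% of male barcodes against 11.5% of female ones, in a peak of 4844 bp. At chr11:14770794-14770877, of 84 bp, the shares were 0.0754% and 10.03%, and at chr6:126438517-126438563, of 47 bp, 0.117% and 8.24%. Both chr18:63439337-63440010 and chr3:111760953-111761119 had a count in 7.69% of female liver barcodes, against 0.964% and 0.243% of male ones. Thinned in the same way, the 6 had a count in 4.26 to 6.73% of female liver barcodes and in at most 0.486% of male ones. Over all members, 312 (3.03%) were supported by a female liver peak that also overlapped another organ's peak. These had a median of 12 female liver counts against 3 for the other 9995. Counts are held for the whole female liver peak, so where in it they fell was not measured.

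Members were spread over all chromosomes, and most shared a window of 100 kb with another member. The supported share of liver-only regions ranged from 29.0% on chromosome 20 to 37.3% on chromosome 18, with 30.7% on the X chromosome. Of 6727 windows of 100 kb with a member, 4469 held 1, which is 43.4% of the members, and 121 held 5 or more. How often male liver peaks in general shared a window was not measured. The median distance to the nearest other member was 34.0 kb, with 26.8% of members within 10 kb of another. Unsupported regions, which were more numerous, lay a median of 17.5 kb from the nearest of their own class, and 38.5% were within 10 kb. The fullest windows held 11 members each. In chr9:92400001-92500000 these took 11 of 23 male liver peaks and were open in 0.897 to 20.8% of male liver barcodes. In chr5:96600001-96700000 they took 11 of 19, with 0.595 to 15.5%. Both windows were picked for their number of members. Over the whole chromosomes, members were 9.82% of the male liver peaks on chromosome 9 and 11.2% on chromosome 5. A further 9 windows held 8 members, led in counts by chr11:10600001-10700000, where they were open in 1.17 to 11.9% of barcodes.

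The cells that carried the members were found by clustering both livers together on 41356 regions that had a peak in both livers and in at least 1 other organ, so that no member entered the clustering. After removal of likely doublets (1424 male and 5 female barcodes), 10511 male and 723 female barcodes fell into 17 clusters. Clusters were not named, for want of marker genes. Barcodes formed a high and a low group by the share of their counts that lay in members. In the male liver the median was 7.28% (quartiles 5.61 and 8.02) and in the female liver 1.04% (quartiles 0.617 and 2.70), and 237 male (2.25%) and 7 female barcodes (0.968%) lay between 3 and 5%. At a limit of 5% of counts, set after the values were seen, 7 clusters were member-rich, of which 1 held a lone barcode. The other 10 clusters are called member-poor.

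How far the groups stood apart was measured in both livers, with the male order fixed by the sorting. In the male liver members took 7.62% of the counts of member-rich cells (interval 7.61 to 7.63) and 1.90% of those of member-poor cells. In the female liver the values were 9.10% (interval 8.96 to 9.25) and 0.979% (interval 0.957 to 1.0005). Without female liver peaks that also overlapped another organ's peak, a setting chosen after seeing the data, they were 8.75% and 0.649%. Clusters were sorted by the liver that held more of their cells, which for each of the 4 member-rich clusters with at least 10 female cells was the male, so the female values did not sort these 4. In those 4 clusters members took 9.48, 8.73, 6.58 and 9.59% of female counts, against 7.93, 7.80, 6.98 and 7.56% of male counts. In the member-poor clusters the male values ran from 1.14 to 2.95%. With likely doublets kept in the clustering, the lowest male cluster of at least 50 cells had 2.25%. The female values were 2.14, 1.48 and 0.957% in clusters 5, 7 and 9, which both livers filled, and 0.657 and 0.572% in clusters 11 and 15, which were sorted by their 245 and 67 female cells. Without the peaks shared with another organ the last 2 clusters had 0.342 and 0.339%.

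Within member-rich cells, the summed members were not less open in the female than in the male liver, with each liver counted in its own peaks. A member entered only with a female liver peak, so this was partly fixed by the choice of members and is a description. The most accessible members went the other way, as given below. The male value was 0.837 times the female value in member-rich cells. Over all cells, where the livers differed in the mix of cells, it was 2.84 times the female value (6.93% against 2.44%). Member-rich clusters held 8066 male barcodes (76.7%, interval 75.9 to 77.5) and 161 female barcodes (22.3%, interval 19.3 to 25.5). With counts in the 19964 regions open in all 8 libraries as the denominator, the male-to-female ratio in member-rich cells was 0.878. That ratio was 0.902 without members whose female liver peak also overlapped another organ's peak.

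This mix followed depth, and in opposite ways in the livers. Counted directly over all deposited barcodes, the share of barcodes with at least 5% of counts in members was 37.8% (interval 34.975 to 40.7) for male liver barcodes with 1000 to 1999 counts, 54.7% with 2000 to 3999 and 90.2% with 4000 or more. In the female liver it was 29.2% (interval 24.6 to 34.3) with 1000 to 1999 counts, 19.3% with 2000 to 3999 and 9.52% with 4000 or more. Female barcodes under the limit of 1000 counts gave 23.7% from 500 to 999 counts and 28.7% under 500. The gap between the livers was therefore smallest at the lowest depth that both shared, and the part of depth in the difference was not tested.

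**Figure D3:**
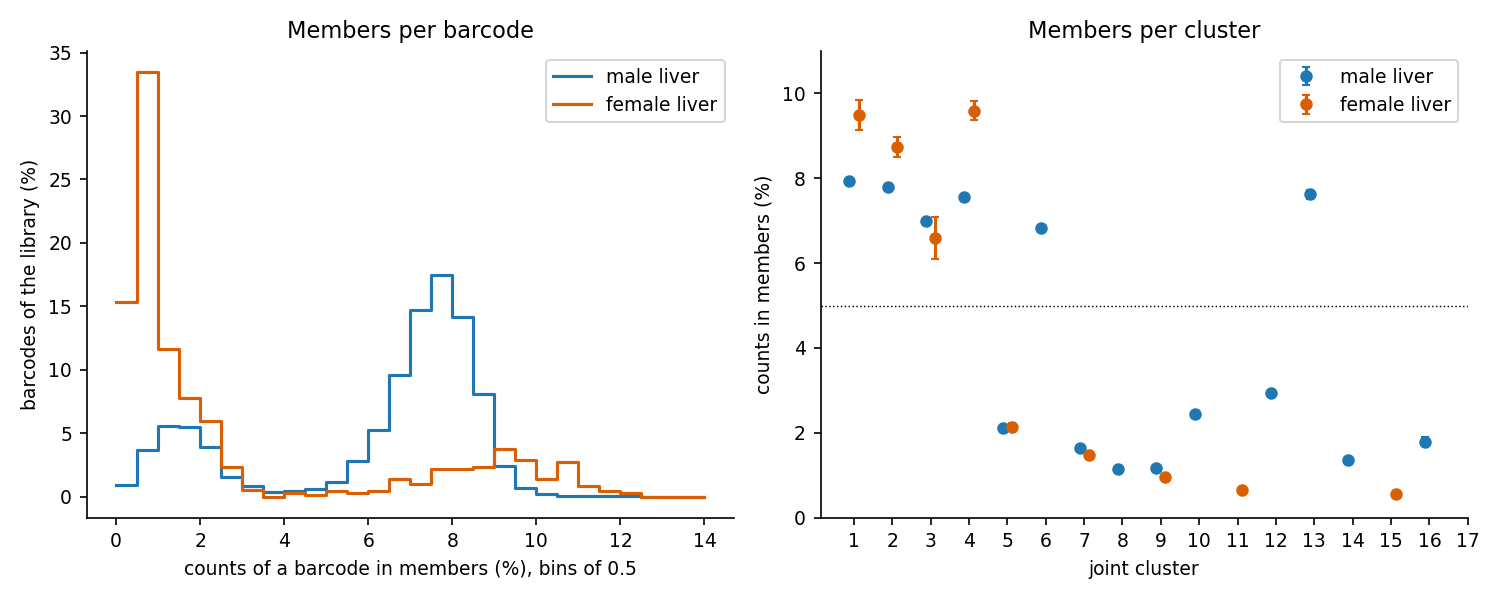
The left panel plots the percent of each liver's barcodes by the percent of their counts in members, in bins of 0.5, and shows a high and a low group in both livers with few barcodes between 3 and 5%. The right panel plots the percent of counts in members for each joint cluster with at least 10 cells of a liver, with exact Poisson intervals, where the dotted line at 5% parts the member-rich from the member-poor clusters.

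The regions without a female liver peak were open in the same male liver cells. They took 4.91% of the counts of member-rich and 1.34% of those of member-poor male cells, a ratio of 3.67 against 4.02 for members. Region by region, 5988 of 6410 members with at least 200 counts (93.4%) were at least 2-fold higher in member-rich cells, and so were 4497 of 4747 unsupported regions (94.7%). Over all male liver peaks with at least 200 counts the share was 49.7%, and among those with a peak of another organ 39.4%. In the other direction, 45 members (0.702%) were at least 2-fold higher in member-poor cells, against 13.3% of all male liver peaks. Member-rich cells held 87.9% of the male liver counts, so the peak calls and the minimum of 200 counts favoured regions open in them, with or without support. The member-rich clusters were also sorted by the summed members, so these shares are a description.

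Female liver peaks on spleen-only regions were open in other cells than members were. They took 1.63% of the counts of member-poor female cells (interval 1.60 to 1.66) and 0.270% of those of member-rich cells (interval 0.247 to 0.296), a ratio of 6.02 in favour of the member-poor cells. The highest cluster was cluster 7, with 3.20%, followed by cluster 9 with 2.498%. In the member-rich clusters with at least 10 female cells the values were 0.227 to 0.527%. The overlap shares of liver-only and spleen-only regions were near-equal at 1 bp, but the counts lay mostly in different female liver cells. By the rule, spleen-only regions had no male liver peak, and member-rich cells held 87.9% of the male liver counts used in the clustering. The member-rich clusters were also sorted by the members. This difference was therefore partly fixed by the choice of regions and is a description.

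Levels in member-rich cells were compared along the range of male accessibility, over the 9995 members whose female liver peak overlapped no other organ. The 1000 members of the highest decile together had 29236 CPM in male and 25668 in female member-rich cells, a female-to-male ratio of 0.878 (interval 0.853 to 0.904). The ratio was 1.08 in the 9th decile, 1.53 in the 5th and 4.94 in the lowest, where 477 male stood against 2356 female CPM. A member entered only with a female liver peak, however weak its male signal, so the rise towards the low deciles was partly fixed by the choice of members. In the lowest decile the female peaks were also the wider, with 370 kb in all against 173 kb, whereas in the highest decile they spanned 822 kb against 1959 kb.

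**Figure D4:**
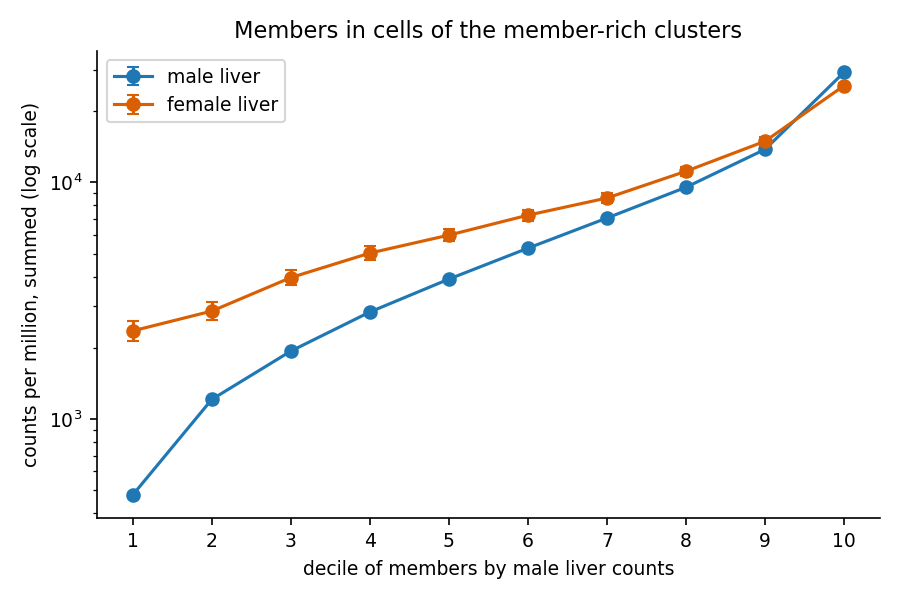
Summed CPM of members (log scale) in member-rich cells of the male and the female liver, by decile of members by male liver counts, with exact Poisson intervals. The female liver stood above the male in each decile but the highest, where it had 25668 against 29236 CPM.

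Of the 6 members most widely open in the male liver, 5 had a lower level in female than in male member-rich cells, where the female liver peaks spanned only part of their length. There chr9:130847932-130873287 had 473 CPM in the male and 218 (interval 155 to 299) in the female liver, whereas chr18:22612706-22623301 had 291 and 311 (interval 235 to 405). The interval of the latter held the male value. In member-poor cells they had 45.0 and 31.7 CPM in the male liver, and 1.86 and 6.19 in the female liver, from 3 and 10 counts. Member-rich cells had 203 male and 36.8 female CPM (interval 14.2 to 77.8) at chr14:105045646-105055210, where 0 of 562 member-poor female barcodes had a count. The levels were 199.9 and 73.6 (interval 39.2 to 126) at chr5:151309810-151319260, 150.1 and 82.1 (interval 45.4 to 137) at chr14:47368412-47374491, and 143 and 42.5 (interval 17.7 to 85.5) at chr15:39241948-39258506. The female interval lay below the male level in all but chr18:22612706-22623301. The 6 were chosen for their high shares in the male liver, which favours a lower female level, so this is a description and no test. The member with the highest share in the female liver was chr4:125123293-125124928. Its whole female liver peak of 7693 bp, which also overlapped another organ's peak, was open alike in both kinds of female cells. It had a count in 11.8% of member-rich and 11.9% of member-poor barcodes.

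A minority of members were led by member-poor cells. Each liver-only region with at least 200 male counts was given to the group with its highest level, either the member-rich cells together or 1 of the 7 member-poor clusters with at least 50 male cells. The member-rich cells led 4767 of the 6410 members with that many counts (74.4%), close to the 69.9% of unsupported liver-only regions, while the share was 34.8% over all male liver peaks with at least 200 counts. The member-rich clusters were sorted by the members' counts, so the share of members is a description. The minimum of 200 counts also favoured regions open in member-rich cells, in all of these classes. Each of the 7 member-poor clusters led a smaller share of the members than of all male liver peaks with at least 200 counts. Cluster 12, with 98 male cells, led 594 members, which was 9.27% against 15.1% of all those peaks, and a highest value in a small cluster can come from few counts. Cluster 5, with 933 male and 88 female cells, led 92 members (1.44% against 7.69%) and cluster 7, with 495 and 73, led 107 (1.67% against 5.35%). Support was most frequent in these groups. It was 78.6% (interval 70.1 to 85.7) of the liver-only regions led by cluster 5 and 72.8% (interval 64.8 to 79.8) for cluster 7, against 58.9% (interval 57.9 to 60.0) for the member-rich cells and 47.1 to 54.7% for the other 5 clusters. Support needs a female liver peak, and of those 5, clusters 8, 10, 12 and 14 held at most 8 female cells each. Cluster 9 held 72 female cells and had 49.6%.

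The members led by cluster 5 kept their place in the female liver, whose counts had no part in the choice of the leading group. Over 89 of them with no other organ in the female peak, the male liver had 2101 CPM in cluster 5 and 369 in member-rich cells, an order fixed by that choice. The female liver had 1986 (interval 1712 to 2291) and 481 (interval 384 to 595). Cluster 5 also had the highest level in the window that the study displayed around EGFL7, a gene of endothelial cells. This was 1293 CPM in the male and 877 in the female liver, where the other clusters with at least 10 cells had at most 395. The window displayed around JCHAIN was highest in cluster 14 of the male liver (240 CPM) and in member-rich cluster 1 of the female liver (337 CPM). Cluster 5 had 161 CPM there in the male and 185 in the female liver. These windows do not name a cluster. The leading member of cluster 5 by ratio was chr20:73955962-73956482, open in 103 of 933 male cells of the cluster (11.04%) and in 8 of 9578 others (0.0835%). All 4 female liver counts in it came from the 88 cells of cluster 5.

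The 99 such members led by cluster 7 had 1247 CPM in cluster 7 and 635 in member-rich cells of the male liver. In the female liver the values were 696 (interval 523 to 908) and 558 (interval 453 to 679), whose intervals overlapped. For the members led by cluster 9 the order was turned, with 392 CPM in cluster 9 and 663 in member-rich cells of the female liver against 1048 and 629 in the male liver. In the male liver the leading group was highest by choice for all these members, and a highest value picked from few counts tends to be too high. The male value of cluster 9 came from 641 counts over 118 members. Whether the livers differed in order was not tested. The 4709 members led by member-rich cells had 58697 CPM there in the male and 62081 in the female liver, against 7064 and 2810 in cluster 5.

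**Figure D5:**
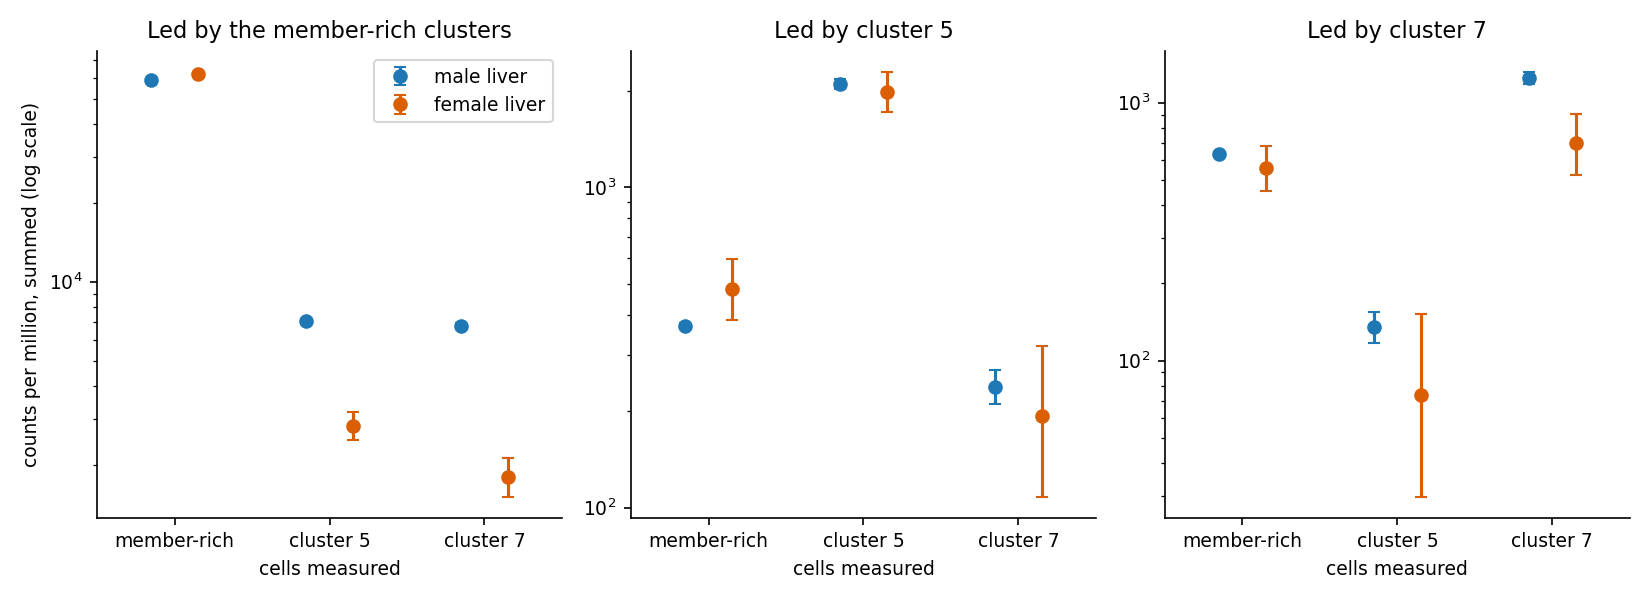
Summed CPM (log scale) in member-rich cells, cluster 5 and cluster 7 of each liver, for members whose highest male liver level was in member-rich cells (4709 members), cluster 5 (89) or cluster 7 (99), with exact Poisson intervals. In the male liver the leading group was highest by choice. In the female liver, members led by cluster 5 were highest in cluster 5, whereas for those led by cluster 7 the intervals of cluster 7 and member-rich cells overlapped.

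The leading members of the other clusters rested on fewer cells. In cluster 7 it was chr6:120334439-120334936, open in 34 of 495 cells against 70 of 10016 others, and in cluster 10 chr16:46502224-46502849, in 26 of 257 against 109 of 10254. In cluster 12 it was chr17:25014840-25015837, open in 12 of 98 cells. None of the 8 female counts in the cluster 7 member fell in female cells of that cluster. For the member-rich clusters the ratios to all other male cells were 2.66 to 6.69, with the largest for chrX:39754252-39754756 in cluster 13 from 10 counts. Cluster 3 followed with 5.08 for chr10:9707156-9708429, open in 45 of 1221 cells (3.69%) against 0.883% of the others. The remaining leading members were chr3:133677015-133677502 in cluster 1, chr1:221120163-221120677 in cluster 2, chr13:39845816-39846343 in cluster 4, chr15:4553704-4554273 in cluster 6, chr1:123476037-123476522 in cluster 8, chr10:73097925-73098423 in cluster 9 and chr15:11934748-11935805 in cluster 14, where 6 counts came from 1 cell. Clusters 8, 10, 12 and 14 had at most 8 female cells each, so no female level is given for them.

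Members were also split by chromosome. The clusters were sorted by counts in all members together, so the same order of cells within a set of chromosomes is a description and no test. Members on the X chromosome took 8.79% of the X-linked counts of member-rich male cells and 2.10% of those of member-poor ones. In the female liver they took 11.3% (interval 10.1 to 12.7) and 1.03% (interval 0.881 to 1.196). Chromosomes 1 to 10 gave 8.07 and 2.07% in the male and 9.94 and 1.06% in the female liver, and chromosomes 11 to 20 gave 6.95 and 1.66%, and 7.88 and 0.856%.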

How the data were processed

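The 8 libraries were taken as deposited. Per the labels (the submitters' processing notes), the authors ran Cell Ranger ATAC 1.2.0 on each library, and the methods state a forced number of cells for liver, which the barcodes of neither liver library equal. Whether it was applied to the female library is not clear. The build for the ATAC reads: not given in the sources used here. The deposited matrices hold raw counts, in which every transposase cut inside a peak adds 1 for its barcode, with peaks called in each library separately, so that the female liver values refer to its own peaks. Male liver peaks were compared by overlap of at least 1 bp, and barcodes with at least 1000 counts were used. Levels are CPM over all peaks of the cells compared. Intervals were exact, binomial for shares and Poisson on counts divided by 2, because a fragment gives 2 ends.

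Clusters were made from binarised TF-IDF values by singular value decomposition (30 components, leaving out those correlated with depth above 0.75) and the Leiden method at resolution 0.8, with 20 neighbours (Python 3.11.15, scipy 1.17.1, leidenalg 0.10.2). Likely doublets were removed by scores from simulated doublets. Overlap and clustering steps were tested on simulated data. Regions were named by a fixed rule: the 6 highest shares in each liver, the 3 fullest windows of 100 kb and those nearest to the limits. The leading member of each cluster with at least 50 male cells, by levels in male cells, was also named. A planned exact permutation test over the 7 organs is not given, since the overlap it tested chose the members. Members and lists were chosen with earlier results of these data known. No sequence is printed, because no genome was used.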

Additional observations from a re-analysis of the deposited data

How the results depend on the processing

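Requiring the female liver peak to cover at least 50% of the male peak left 6206 members, a supported share of 20.1% against 26.7% for spleen-only regions, a ratio of medians of 2.11, and medians of 1.47% of male and 0.412% of female barcodes and of 3.85% and 0.888% of a barcode's counts, so that liver no longer stood level with spleen. With female liver peaks that held a count in a barcode of at least 1000 counts the shares were 26.7% and 28.7% (spleen), the ratio 2.98, the male barcodes 1.84% and the male counts 6.45%. Male liver peaks in at least 1% of barcodes left 5872 unsupported regions and a share of 53.95%. With the livers' roles swapped, 51758 of the female liver-only regions had no male peak and 19.9% had one. From 1 liver library alone, liver-only regions numbered 30856 (male) to 64591 (female). Removing regions within 500 bp of another organ gave medians of 6.91% and 0.789% of a barcode's counts. A minimum of 2000 counts gave 1.77% and 0.271% of barcodes and 7.397% and 0.824% of counts, and no minimum gave 0.142% of female barcodes and 1.67% of female counts. Removing doublets gave 1.399% and 0.277% of barcodes. Thinned to 1000 counts, the median member was open in 0.344% of male and 0.137% of female barcodes. All members together took a median of 7.2% of a male barcode's counts. The ratio of medians was 2.47 over barcodes and 1.496 per kb.

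Chosen after seeing the data, female liver peaks of no other organ gave a share of 32.4%, medians of 7.20% and 0.654% of a barcode's counts, and 7.53% and 8.75% of counts in member-rich cells. The ratio between the highest and the lowest male cluster, 6.93, fell to 3.55 with doublets kept (75.2% of male cells and 7.66% of their counts) and rose to 10.9 over regions open in all 8 libraries. Resolutions of 0.4 and 1.2 and another seed gave 6.75 to 7.002 and the same shares of member-rich cells. The cause of these shifts was not tested. No paired analysis was possible because the livers came from different animals. Female depth limits single members, with a median of 3 counts.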
